A study of Mus musculus with 9 samples.

Results

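The genes described here are 35 endothelial genes, chosen by symbol from 41761 genes in a table of expression in differentiating mouse adipose cells. All 35 were found, and 33 of them were among the 12635 genes tested, those that reached 1 FPKM in 3 or more of the 9 libraries. FPKM counts the sequenced fragments for each kilobase of a gene and corrects for library depth, so levels can be compared between genes. Between libraries it does not correct for differences in RNA composition. The FPKM sums ran from 317350 to 329049 in the 100 µM libraries and from 303592 to 319331 in the others. The members were grouped by role as 11 junction and adhesion proteins, 7 receptors and receptor partners, 8 transcription factors and 9 secreted and effector proteins. Of the 33 members tested, 32 were at 1 FPKM or more in every library. Nos3 passed with 2 of 3 libraries over 1 FPKM at 0 µM, 2 of 3 at 50 µM and 0 of 3 at 100 µM. Sox17 and Vwf stayed under the filter.

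The study asked how sodium alginate, the salt of a polysaccharide that brown algae make, acts on the white differentiation of stromal cells from inguinal fat. Primary stromal cells from wild-type C57 mice were grown past confluence and given 0, 50 or 100 µM sodium alginate throughout differentiation, with 3 libraries per dose. Cells at every dose, 0 µM included, received insulin at 1 µg/ml, dexamethasone at 1 µM, isobutylmethylxanthine at 0.5 mM and rosiglitazone at 1 µM, although the design text does not list rosiglitazone. Serum was at 10% and the medium was changed on day 2 at every dose. For the 100 µM libraries the titles give 50 µM, and the dose used here is the one in their treatment label and library name. Day 6 stands in the titles and day 7, as the day of collection, in the protocol. The labels name no separate cultures or animals behind the libraries of a dose. The p-values therefore reflect the spread among libraries within doses, pooled over all 9 libraries and moderated by a variance trend over the genes tested. That spread could be technical alone. The cells are labelled as mature white adipocytes, and the adipocyte markers were high in every library: Adipoq (adiponectin) was at 569.5 to 622 FPKM at 0 µM, 631 to 670.4 FPKM at 50 µM and 884 to 1011 FPKM at 100 µM. Fabp4, the adipocyte fatty acid carrier, was at 2545 to 2687 FPKM at 0 µM, 2555 to 3029 FPKM at 50 µM and 3489.9 to 3850.5 FPKM at 100 µM. The lipid droplet coat gene Plin1 ranged over 209 to 209 FPKM with no alginate, 247 to 254 FPKM with 50 µM and 305 to 318 FPKM with 100 µM. Rebuilt reads per library ranged from 14019672 to 17094467.

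Endothelial cells line blood and lymphatic vessels, and the stromal fraction released from fat by digestion holds them beside progenitors and macrophages. They are held together by VE-cadherin (Cdh5) and PECAM1, take growth and survival signals through receptors for VEGF and angiopoietins, and owe their identity to ETS and SoxF transcription factors. In fat, capillary endothelium also passes fatty acids from blood to adipocytes. In bulk RNA, fewer endothelial cells, less RNA of these genes per cell and a larger share of RNA from other cells cannot be told apart.

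At 100 µM alginate, 26 of the 33 endothelial genes tested were lower than at 0 µM and 0 were higher, by limma on log2(FPKM + 1) with a Benjamini-Hochberg adjusted p below 0.05 over all 12635 genes. Among all genes tested, 15.6% were called lower and 18.3% higher in that comparison. The members' median log2 fold change was -0.30, against 0.01 over all genes tested, and all 33 members had a log2 fold change below 0. Every library at 100 µM was lower than every library at 0 µM for 27 of the 33, against 22.9% of all genes tested. Against 50 µM, 20 members were lower at 100 µM and 0 were higher, with a median of -0.27 and a background of 12.0% called lower. In that comparison 25 members had every 100 µM library below every 50 µM library, against a background of 19.5%. Nos3, which passed the filter only through libraries at 0 and 50 µM, is in the 33, the 27 and the 25. The filter favoured its low values at 100 µM. Both comparisons share the 100 µM libraries. The 20 members lower against 50 µM were all among the 26 lower against 0 µM. The count against 0 µM was 16 without library 3 of the 0 µM dose, and the count against 50 µM was 13 without library 3 of the 50 µM dose or without library 2 of the 100 µM dose. With every library rescaled to the same FPKM sum, 29 members were lower against 0 µM, with a background of 20.8%. That scaling turned the split of all genes from 1965 lower and 2314 higher to 2633 lower and 1630 higher, and removing the authors' factor per library gave 2658 lower and 1731 higher.

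At 50 µM against 0 µM, 0 of the 33 members were called in either direction by limma. At an unadjusted p below 0.05 there were 4, all lower (Tek, Ptprb, Prox1 and Emcn), against 5.73% of all genes tested that were lower at that threshold, and voom on rebuilt reads called 0. Of all genes tested, 0.435% were called lower and 0.356% higher in that comparison, which is 55 and 45 genes. Both counts were 0 with only the 2 doses compared, with a replicate block, without library 1 or 2 of the 0 µM dose and without library 2 of the 50 µM dose. Without library 3 of the 0 µM dose they were 0 and 1, without library 1 of the 50 µM dose 33 and 9, without library 3 of that dose 5 and 8, and without library 2 of the 100 µM dose 26 and 27, while voom gave 179 and 169. Of the members, 22 had a log2 fold change below 0 and 11 above 0, with a median of -0.03, and 14 of the 33 changed sign in 1 or more alternatives. Every 50 µM library was below every 0 µM library for 5 members (Cdh5, Emcn, Tek, Ptprb and Prox1), and the background for that was 8.58%.

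The 35 members together gave 432 ± 24.9 FPKM without alginate, 425 ± 22.8 FPKM with 50 µM and 335 ± 6.80 FPKM with 100 µM (SD, n = 3 each). The sum at 100 µM was 0.777 times that at 0 µM, and the 3 libraries at 100 µM lay between 328 and 341 FPKM, below all 6 others. The members' share of reads was 0.174% with no alginate, 0.170% with 50 µM and 0.129% with 100 µM. The median level of the members tested was 8.53 FPKM at 0 µM, 8.53 FPKM at 50 µM and 6.52 FPKM at 100 µM, while that of all genes tested was 7.09 FPKM with no alginate, 7.08 FPKM with 50 µM and 7.05 FPKM with 100 µM. The members spanned a wide range of levels. Averaged over the 9 libraries, Cdh5 was the most abundant at 47.2 FPKM, followed by Lyve1 at 37.6, Sox18 at 30.5, Eng at 29.7, Pecam1 at 28.6 and Egfl7 at 24.2 FPKM. The library ranges of these neighbours overlapped. At the other end stood Vwf, the clotting factor stored in endothelial granules, at 0.161 FPKM.

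**Figure D1:**
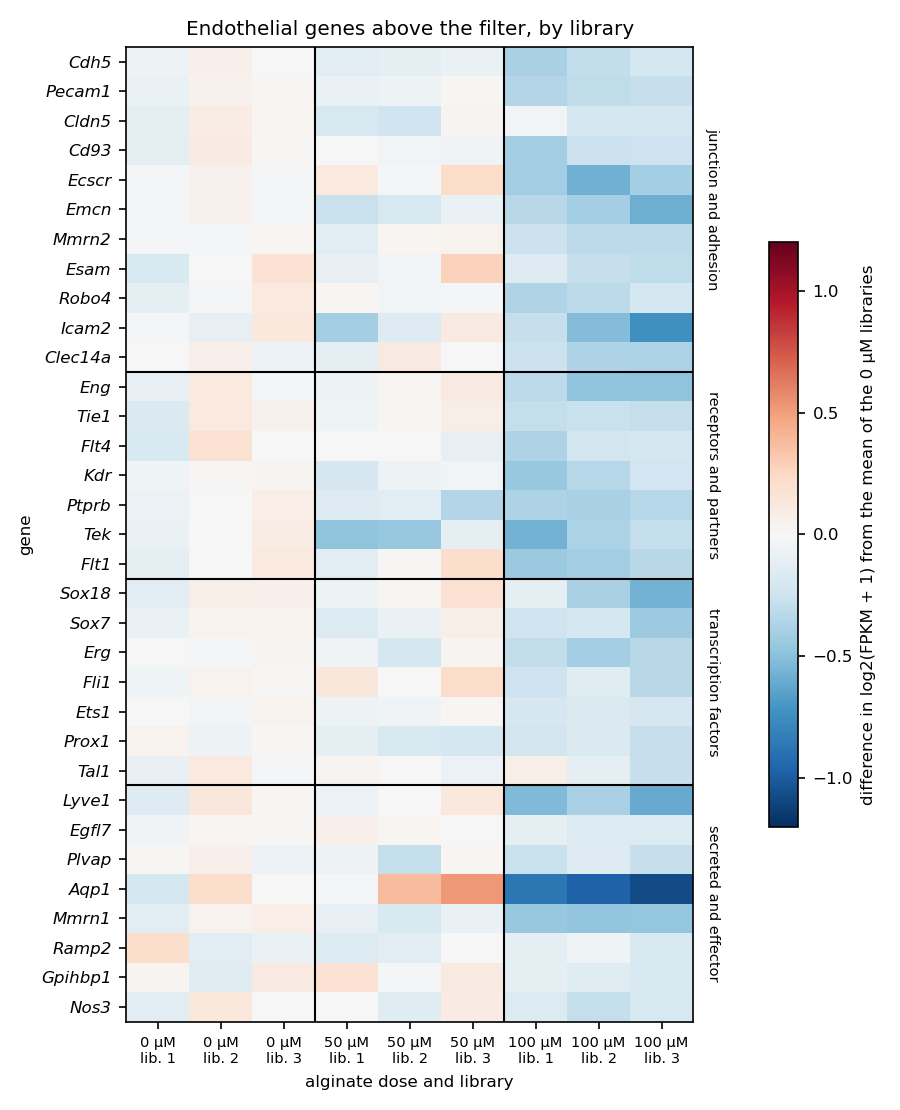
Heat map of the 33 endothelial genes above the filter (rows, grouped by role and ordered by their level at 0 µM) in the 9 libraries (columns, by dose). Colour is the difference in log2(FPKM + 1) from the mean of the 0 µM libraries, and blue, below that mean, fills nearly all of the 100 µM columns, with Aqp1 the darkest row.

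Promoter sequences are shown because 3 of the members (Erg, Fli1 and Ets1) encode ETS factors, whose family binds DNA at a GGAA core, and because most members moved together. RefSeq windows on GRCm38.p6 were at hand for 16 of the 35 members. The 250 bases before each start were searched on both strands for CGGAAG and AGGAAG, which do not overlap in a single site. Of the 16 members, 8 (50.0%) held a match, against 42.5% of the 27025 genes in the table. Counted by window, 9 of 22 (40.9%) held one, against 39.2% of 32851 windows. The share among members thus stood near that among all genes. The windows of Eng (chr2:32646345-32646594, plus strand), Flt1 (chr5:147726012-147726261, minus strand), Emcn (chr3:137340828-137341077, plus strand) and Robo4 (chr9:37401722-37401971, plus strand), all lower at 100 µM, held matches. The window of Kdr (chr5:75978456-75978705, minus strand), also lower at 100 µM, held no match to either motif. It does hold the GGAA core between other bases, and such sites were not searched. Clec14a, Flt4, Mmrn1, Prox1 and Tek, also lower at 100 µM, held no match either, nor did Cldn5 and Tal1, which were not called. The other members with a match were Aqp1, Egfl7, Erg and Tie1, all lower. Each window given with coordinates is printed along its gene's strand, with matches to either motif or its reverse complement in capitals.
Eng: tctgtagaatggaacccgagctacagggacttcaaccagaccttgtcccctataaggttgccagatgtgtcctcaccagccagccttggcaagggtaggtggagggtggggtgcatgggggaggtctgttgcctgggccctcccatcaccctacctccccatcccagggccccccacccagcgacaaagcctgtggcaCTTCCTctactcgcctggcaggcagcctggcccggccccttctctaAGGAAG
Flt1: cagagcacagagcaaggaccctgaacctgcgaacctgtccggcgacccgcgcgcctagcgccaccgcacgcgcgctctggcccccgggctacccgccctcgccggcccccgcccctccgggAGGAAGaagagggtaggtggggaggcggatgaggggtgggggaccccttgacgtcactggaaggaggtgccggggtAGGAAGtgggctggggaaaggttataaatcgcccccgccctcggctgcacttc
Emcn: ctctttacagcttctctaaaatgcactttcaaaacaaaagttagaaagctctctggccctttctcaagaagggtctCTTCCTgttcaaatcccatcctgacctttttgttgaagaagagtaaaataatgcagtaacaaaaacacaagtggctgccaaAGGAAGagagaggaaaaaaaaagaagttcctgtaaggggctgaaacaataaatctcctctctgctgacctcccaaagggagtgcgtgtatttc
Robo4: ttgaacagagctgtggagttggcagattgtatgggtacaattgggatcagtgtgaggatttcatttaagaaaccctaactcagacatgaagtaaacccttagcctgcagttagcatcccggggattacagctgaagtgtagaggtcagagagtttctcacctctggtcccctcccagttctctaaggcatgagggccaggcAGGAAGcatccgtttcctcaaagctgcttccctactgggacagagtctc
Kdr: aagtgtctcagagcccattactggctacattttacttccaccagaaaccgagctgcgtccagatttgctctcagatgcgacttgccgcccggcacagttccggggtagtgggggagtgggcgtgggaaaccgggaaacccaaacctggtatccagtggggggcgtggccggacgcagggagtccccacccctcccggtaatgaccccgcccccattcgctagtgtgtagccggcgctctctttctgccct
A match here is a string of letters and not a measured binding site, and a window with none says nothing about the factors.

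Among the junction and adhesion proteins, 9 of 11 were lower at 100 µM than at 0 µM, and 8 of 11 were lower than at 50 µM. Over all genes tested the shares called lower were 15.6% and 12.0%, and they stand beside the counts of the other roles too. Fold changes are given on the log2(FPKM + 1) scale, which understates the change of genes with low values, and adjusted p-values are limma's. Pecam1, an adhesion receptor at contacts between endothelial cells (gene on chr11:113357138-113481843 of the C57BL/6NJ assembly, minus strand), was at 29.3, 32.2 and 31.5 FPKM in the 0 µM libraries, 29.3, 29.6 and 31.2 FPKM in the 50 µM libraries and 24.1, 24.9 and 25.4 FPKM in the 100 µM libraries. The 100 µM libraries were the lowest and overlapped neither other dose. Pecam1 fell by 0.31 (SE 0.0475, adjusted p = 0.00103) at 100 µM against 0 µM, and by 0.27 (SE 0.0475, adjusted p = 0.00363) against 50 µM. Cdh5, VE-cadherin of the adherens junction (gene on chr8:110100221-110146622, plus strand), was at 49.6, 54.1 and 51.5 FPKM in the 0 µM libraries, 47.4, 47.5 and 49.0 FPKM in the 50 µM libraries and 39.3, 41.9 and 44.6 FPKM in the 100 µM libraries. Its 3 doses did not overlap. Cdh5 fell by 0.30 (SE 0.0530, adjusted p = 0.00236) at 100 µM against 0 µM and by 0.19 (adjusted p = 0.0276) against 50 µM, while 50 µM against 0 µM gave -0.11 (adjusted p = 0.403). The fall against 50 µM was lost without any 1 of the 50 µM libraries or without library 1 or 2 of the 100 µM dose. Emcn, a sialomucin of capillary and venous endothelium, was at 8.47, 8.998 and 8.50 FPKM in the 0 µM libraries, 7.04, 7.42 and 8.14 FPKM in the 50 µM libraries and 6.64, 6.26 and 5.45 FPKM in the 100 µM libraries. It too had no overlap between doses. Emcn fell by 0.44 (SE 0.0736, adjusted p = 0.00164) at 100 µM against 0 µM and by 0.26 (adjusted p = 0.0287) against 50 µM, and the second call was lost without library 2 or 3 of the 50 µM dose or library 2 or 3 of the 100 µM dose. Icam2, a ligand for leukocyte integrins, was at 4.96, 4.63 and 5.58 FPKM in the 0 µM libraries, 3.56, 4.41 and 5.52 FPKM in the 50 µM libraries and 4.00, 3.21 and 2.63 FPKM in the 100 µM libraries. All 100 µM libraries lay below all 0 µM libraries, but library 1 of the 50 µM dose lay between library 1 and library 2 of the 100 µM dose. Icam2 fell by 0.51 (SE 0.147, adjusted p = 0.0249) against 0 µM, a call lost without library 1 or 3 of the 0 µM dose or library 2 or 3 of the 100 µM dose, and differed by -0.36 against 50 µM (adjusted p = 0.109).

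Clec14a, Cd93 and Mmrn2 belong to one system: the first 2 are lectin-like surface receptors that bind Mmrn2, a glycoprotein of the endothelial matrix. Clec14a was at 3.50, 3.66 and 3.27 FPKM without alginate, 3.15, 3.81 and 3.45 FPKM with 50 µM and 2.75, 2.46 and 2.43 FPKM with 100 µM. Cd93 was at 18.7, 21.9 and 20.5 FPKM without alginate, 20.2, 19.8 and 19.7 FPKM with 50 µM and 15.1, 16.9 and 17.0 FPKM with 100 µM. Mmrn2 was at 8.46, 8.42 and 8.705 FPKM without alginate, 7.74, 8.68 and 8.79 FPKM with 50 µM and 6.97, 6.66 and 6.64 FPKM with 100 µM. For all 3, every 100 µM library was below every library of the other doses, and the 50 µM and 0 µM libraries overlapped. Clec14a fell by 0.34 (adjusted p = 0.00797) against 0 µM and by 0.33 (adjusted p = 0.0121) against 50 µM. Cd93 fell by 0.30 (adjusted p = 0.00562) and by 0.27 (adjusted p = 0.0132) in the same comparisons. Mmrn2 fell by 0.30 (adjusted p = 0.00271) against 0 µM and by 0.28 (adjusted p = 0.00603) against 50 µM. Ecscr encodes an endothelial surface protein involved in cell migration and survival. It was at 10.3, 11.0 and 10.4 FPKM without alginate, 11.6, 10.3 and 12.5 FPKM with 50 µM and 7.67, 6.75 and 7.71 FPKM with 100 µM, so that the 100 µM libraries stood apart below the rest. Ecscr fell by 0.47 (SE 0.0726, adjusted p = 0.00115) against 0 µM and by 0.57 (SE 0.0726, adjusted p = 0.000718) against 50 µM. Robo4, a roundabout receptor of endothelium, was at 5.11, 5.51 and 6.11 FPKM without alginate, 5.65, 5.43 and 5.47 FPKM with 50 µM and 4.10, 4.28 and 4.67 FPKM with 100 µM. The 100 µM libraries were again below all others, and Robo4 fell by 0.30 (adjusted p = 0.00886) against 0 µM and by 0.29 (adjusted p = 0.0149) against 50 µM. All 5 of these genes passed in both comparisons whichever library was left out.

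Both remaining junction genes were not called in the main fit. With every library rescaled to the same FPKM sum, both were called lower against 0 µM. Esam was also called lower against 50 µM with that scaling and with voom. Cldn5, the main claudin of endothelial tight junctions, was at 21.95, 25.2 and 24.1 FPKM in the 0 µM libraries, 20.7, 19.99 and 24.2 FPKM in the 50 µM libraries and 23.2, 20.4 and 20.4 FPKM in the 100 µM libraries. Library 1 of the 100 µM dose lay within the range of the 0 µM libraries. The log2 fold change of Cldn5 was -0.15 (95% interval -0.34 to 0.04, adjusted p = 0.198) against 0 µM and -0.02 (adjusted p = 0.903) against 50 µM. Esam, an immunoglobulin-type adhesion molecule of tight junctions, was at 7.12, 8.22 and 9.40 FPKM in the 0 µM libraries, 7.60, 7.99 and 10.1 FPKM in the 50 µM libraries and 7.26, 6.60 and 6.43 FPKM in the 100 µM libraries, and library 1 of the 100 µM dose exceeded library 1 of the 0 µM dose. Its log2 fold change was -0.25 (95% interval -0.50 to 0.01, adjusted p = 0.126) against 0 µM and -0.29 (adjusted p = 0.0896) against 50 µM.

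**Figure D2:**
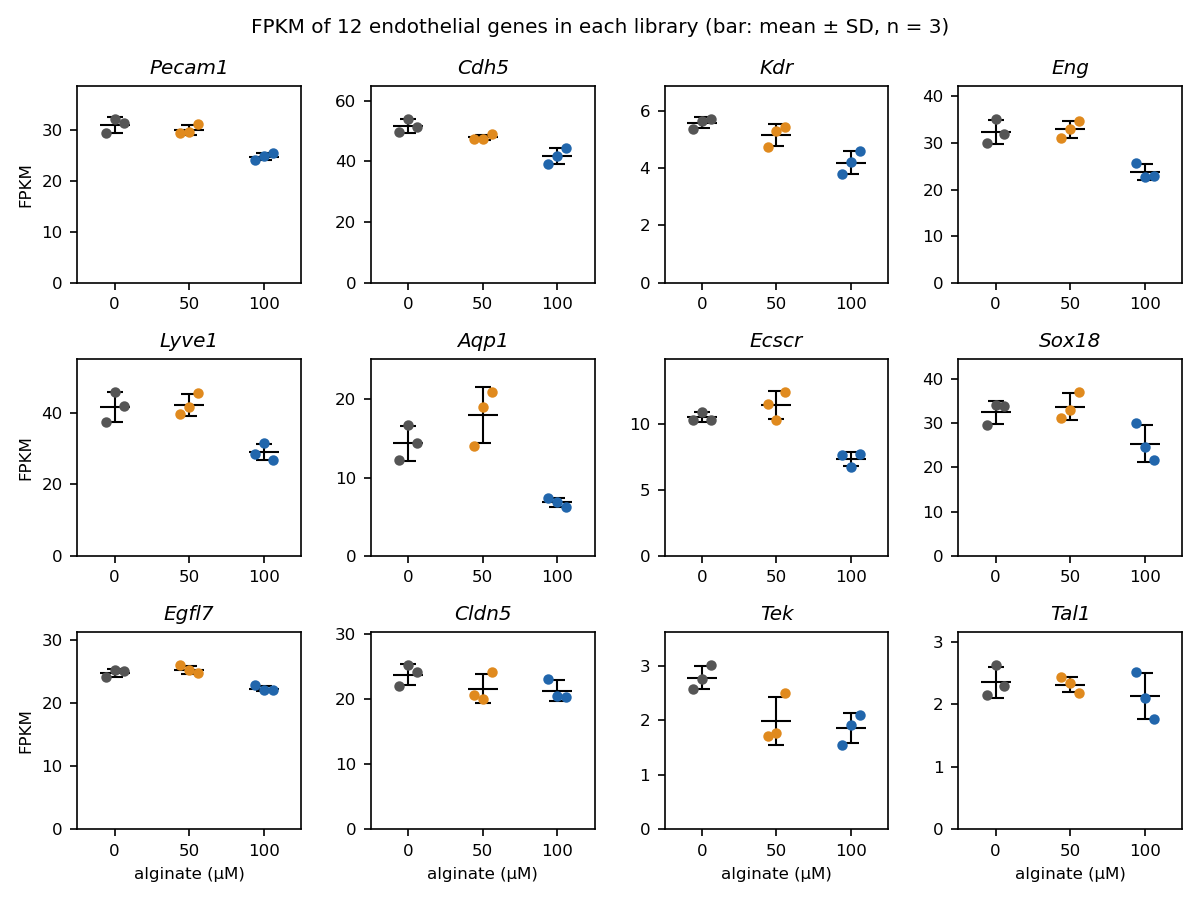
FPKM of 12 endothelial genes in each library (points) by alginate dose, with the mean and SD of the 3 libraries (bars). Pecam1, Cdh5, Kdr, Eng, Lyve1, Aqp1 and Ecscr have their 3 lowest libraries at 100 µM, while the doses overlap for Cldn5 and Tal1 and Tek is low at 50 µM as well.

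All 7 receptors and receptor partners were lower at 100 µM than at 0 µM, and 4 of the 7 were lower than at 50 µM. Kdr, the main signalling receptor for VEGF-A (gene on chr5:79160881-79210489 of the C57BL/6NJ assembly), was at 5.37, 5.66 and 5.73 FPKM in the 0 µM libraries, 4.74, 5.32 and 5.44 FPKM in the 50 µM libraries and 3.79, 4.21 and 4.601 FPKM in the 100 µM libraries. The 100 µM libraries were the 3 lowest. Kdr fell by 0.34 (SE 0.0722, adjusted p = 0.00565) at 100 µM against 0 µM and by 0.25 (SE 0.0722, adjusted p = 0.0345) against 50 µM, the second call being lost without library 3 of the 0 µM dose, library 2 or 3 of the 50 µM dose, or library 1 or 2 of the 100 µM dose. Flt1, a VEGF receptor that limits the VEGF-A available to Kdr, was at 1.98, 2.23 and 2.499 FPKM in the 0 µM libraries, 1.94, 2.27 and 2.75 FPKM in the 50 µM libraries and 1.37, 1.42 and 1.56 FPKM in the 100 µM libraries. No 100 µM library reached the range of another dose. Flt1 fell by 0.40 (SE 0.106, adjusted p = 0.018) against 0 µM and by 0.43 (adjusted p = 0.0171) against 50 µM. The first call was lost without library 3 of the 0 µM dose or library 1 or 2 of the 100 µM dose, and the second without library 3 of the 50 µM dose or library 2 of the 100 µM dose. Flt4, the receptor for VEGF-C and VEGF-D on lymphatic endothelium, was at 7.62, 10.1 and 8.80 FPKM in the 0 µM libraries, 8.78, 8.73 and 8.17 FPKM in the 50 µM libraries and 6.55, 7.39 and 7.47 FPKM in the 100 µM libraries. The 100 µM libraries did not overlap the others, but the 0 µM libraries were spread widely. Flt4 fell by 0.27 (adjusted p = 0.0445) against 0 µM, a call that held only when library 1 of the 0 µM dose was the one left out, and differed by -0.23 (adjusted p = 0.0879) against 50 µM.

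Tek (Tie2) is the angiopoietin receptor, Tie1 its partner, and Ptprb (VE-PTP) a phosphatase that acts on Tek. Tek was at 2.58, 2.76 and 3.01 FPKM in the 0 µM libraries, 1.70, 1.76 and 2.499 FPKM in the 50 µM libraries and 1.55, 1.91 and 2.10 FPKM in the 100 µM libraries. Unlike most members, it was as low in 2 of the 50 µM libraries as at 100 µM, and only the 0 µM libraries stood apart. Tek fell by 0.41 (SE 0.119, adjusted p = 0.0258) at 100 µM against 0 µM, and differed by -0.06 (adjusted p = 0.752) against 50 µM. At 50 µM against 0 µM the log2 fold change was -0.35 (95% interval -0.62 to -0.08, adjusted p = 0.212). The call against 0 µM was lost without library 2 or 3 of the 0 µM dose or library 1 or 2 of the 100 µM dose. Ptprb was at 2.84, 3.03 and 3.26 FPKM in the 0 µM libraries, 2.64, 2.68 and 2.17 FPKM in the 50 µM libraries and 2.13, 2.08 and 2.19 FPKM in the 100 µM libraries. Library 3 of the 50 µM dose fell within the 100 µM range, and all 0 µM libraries were above both other doses. Ptprb fell by 0.37 (adjusted p = 0.00675) at 100 µM against 0 µM, with -0.16 (adjusted p = 0.196) against 50 µM and -0.21 (adjusted p = 0.263) for 50 µM against 0 µM. Tie1 was at 11.7, 14.5 and 13.9 FPKM in the 0 µM libraries, 12.8, 13.5 and 14.01 FPKM in the 50 µM libraries and 10.8, 10.9 and 10.8 FPKM in the 100 µM libraries. Its 100 µM libraries agreed closely and were the 3 lowest. Tie1 fell by 0.28 (adjusted p = 0.0149) against 0 µM and by 0.29 (adjusted p = 0.0169) against 50 µM, and lost the first call without library 2 or 3 of the 0 µM dose and the second without library 2 or 3 of the 50 µM dose. Eng (endoglin), a co-receptor for ligands of the TGF-beta family that adipose progenitors also carry, was at 30.0, 35.2 and 31.9 FPKM in the 0 µM libraries, 31.0, 32.9 and 34.8 FPKM in the 50 µM libraries and 25.7, 22.8 and 22.8 FPKM in the 100 µM libraries. Endoglin averaged 32.4 ± 2.62 FPKM at 0 µM, 32.9 ± 1.90 FPKM at 50 µM and 23.8 ± 1.69 FPKM at 100 µM (SD, n = 3 each), without overlap between 100 µM and either other dose. Eng fell by 0.43 (SE 0.0722, adjusted p = 0.00172) against 0 µM and by 0.45 (SE 0.0722, adjusted p = 0.00214) against 50 µM, whichever library was left out.

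**Figure D3:**
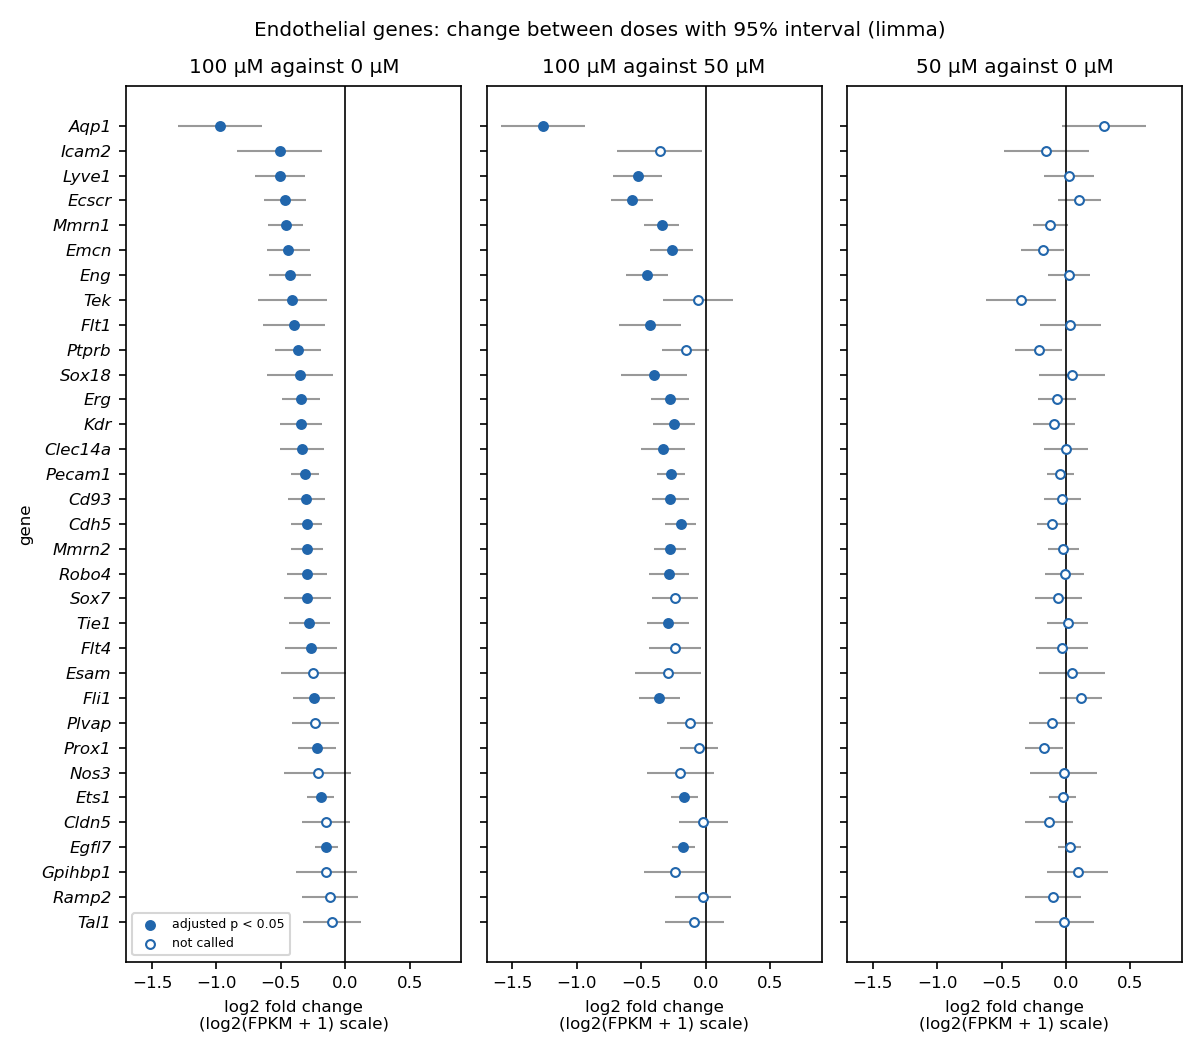
Log2 fold changes of the 33 endothelial genes above the filter (points) with 95% intervals (lines), for 100 µM against 0 µM, 100 µM against 50 µM and 50 µM against 0 µM, ordered by the first comparison. Filled points have a limma adjusted p below 0.05: there are 26, 20 and 0 of them in the 3 panels, all left of the line at 0.

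Of the 8 transcription factors, 7 were tested, and 6 of these were lower at 100 µM than at 0 µM, with 4 lower than at 50 µM. The ETS factors Erg, Fli1 and Ets1 maintain the endothelial programme. Erg was at 8.38, 8.23 and 8.61 FPKM in the 0 µM libraries, 8.14, 7.15 and 8.61 FPKM in the 50 µM libraries and 6.66, 6.09 and 6.46 FPKM in the 100 µM libraries. Fli1 was at 7.500, 8.09 and 7.91 FPKM in the 0 µM libraries, 8.69, 7.81 and 9.29 FPKM in the 50 µM libraries and 6.43, 7.00 and 6.01 FPKM in the 100 µM libraries. Ets1, which immune and stromal cells also express, was at 6.41, 6.27 and 6.67 FPKM in the 0 µM libraries, 6.16, 6.24 and 6.54 FPKM in the 50 µM libraries and 5.47, 5.61 and 5.49 FPKM in the 100 µM libraries. For each of the 3, the 100 µM libraries were the 3 lowest of the 9. Erg fell by 0.35 (SE 0.0655, adjusted p = 0.0033) against 0 µM and by 0.27 (adjusted p = 0.0152) against 50 µM, the second call being lost without library 2 of the 100 µM dose. Fli1 fell by 0.24 (adjusted p = 0.0279) against 0 µM and by 0.36 (adjusted p = 0.00638) against 50 µM, the first call being lost without library 2 or 3 of the 0 µM dose or library 1 or 3 of the 100 µM dose. Ets1 had the smallest of these changes, a fall of 0.19 (adjusted p = 0.0119) against 0 µM and of 0.17 (adjusted p = 0.0305) against 50 µM. Its call against 50 µM was lost without any 1 of the 50 µM or 100 µM libraries.

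Sox7, Sox17 and Sox18 form the SoxF subfamily, which acts in arterial and lymphatic specification. Sox18, among the most abundant members, was at 29.5, 34.1 and 33.9 FPKM in the 0 µM libraries, 31.1, 32.9 and 37.0 FPKM in the 50 µM libraries and 29.9, 24.6 and 21.6 FPKM in the 100 µM libraries. Library 1 of the 100 µM dose exceeded library 1 of the 0 µM dose, so those doses overlapped, and the 100 µM libraries were spread more widely than those of either other dose. Sox18 fell by 0.35 (SE 0.113, adjusted p = 0.0383) against 0 µM and by 0.40 (adjusted p = 0.0296) against 50 µM. The call against 0 µM was lost without library 2 or 3 of the 0 µM dose, library 2 of the 50 µM dose, or library 2 or 3 of the 100 µM dose, and that against 50 µM without library 2 or 3 of the 50 µM or of the 100 µM dose. Sox7 was at 11.8, 13.0 and 13.0 FPKM in the 0 µM libraries, 11.1, 11.9 and 13.3 FPKM in the 50 µM libraries and 10.5, 10.7 and 9.05 FPKM in the 100 µM libraries. Its 100 µM libraries did not overlap the others. Sox7 fell by 0.29 (adjusted p = 0.0192) against 0 µM, a call lost without library 2 or 3 of the 0 µM dose or library 3 of the 100 µM dose, and differed by -0.24 (adjusted p = 0.0589) against 50 µM. Sox17 stayed between 0.571 and 0.934 FPKM, with 37 to 70 rebuilt reads per library, and was not tested. Prox1, which specifies lymphatic endothelium, was at 3.35, 3.03 and 3.26 FPKM in the 0 µM libraries, 2.88, 2.68 and 2.64 FPKM in the 50 µM libraries and 2.62, 2.74 and 2.48 FPKM in the 100 µM libraries. The 0 µM libraries were the 3 highest, and the 50 µM and 100 µM libraries overlapped. Prox1 fell by 0.22 (adjusted p = 0.0269) against 0 µM and differed by -0.05 (adjusted p = 0.632) against 50 µM. The call was lost without library 1 or 3 of the 0 µM dose or library 1 or 3 of the 100 µM dose. It was also lost with no filter, with quantile normalization and with a replicate block. Tal1, a helix-loop-helix factor of blood and endothelial development, was at 2.14, 2.62 and 2.29 FPKM in the 0 µM libraries, 2.43, 2.33 and 2.18 FPKM in the 50 µM libraries and 2.52, 2.10 and 1.77 FPKM in the 100 µM libraries. The doses overlapped, and its log2 fold change was -0.10 (95% interval -0.33 to 0.13, adjusted p = 0.477) at 100 µM against 0 µM.

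Of the 9 secreted and effector proteins, 8 were tested, and 4 of these were lower at 100 µM than at 0 µM and lower than at 50 µM. Aqp1, a water channel of endothelial membranes (gene on chr6:55965139-55977262 of the C57BL/6NJ assembly, plus strand), was at 12.2, 16.7 and 14.4 FPKM in the 0 µM libraries, 14.1, 19.0 and 20.9 FPKM in the 50 µM libraries and 7.39, 6.84 and 6.25 FPKM in the 100 µM libraries. It averaged 14.4 ± 2.23 FPKM at 0 µM, 17.98 ± 3.54 FPKM at 50 µM and 6.83 ± 0.570 FPKM at 100 µM (SD, n = 3 each), and every 100 µM library was far below every other library. Aqp1 fell by 0.97 (SE 0.145, 95% interval -1.30 to -0.64, adjusted p = 0.000903) against 0 µM and by 1.26 (SE 0.145, adjusted p = 0.000483) against 50 µM. Among the 12635 genes tested it ranked 41 from the most reduced against 0 µM and 15 against 50 µM. The 50 µM libraries overlapped the 0 µM libraries, with a log2 fold change of 0.29 (adjusted p = 0.398) between these doses. Set against the mean of the other members in the same library, Aqp1 stood at 0.66 on the log2 scale at 0 µM, 1.00 at 50 µM and -0.01 at 100 µM, a difference of -0.67 between 100 µM and 0 µM. For 30 other members that difference lay between -0.19 and 0.18, and for Ramp2 and Tal1 it was 0.21 and 0.23. These relative levels are descriptions and were not tested.

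Lyve1, a hyaluronan receptor of lymphatic endothelium and of some tissue macrophages, was at 37.3, 45.8 and 41.9 FPKM in the 0 µM libraries, 39.6, 41.7 and 45.5 FPKM in the 50 µM libraries and 28.6, 31.4 and 27.0 FPKM in the 100 µM libraries. The 100 µM libraries were below all others. Lyve1 fell by 0.51 (SE 0.0850, adjusted p = 0.00171) against 0 µM and by 0.53 (SE 0.0850, adjusted p = 0.00225) against 50 µM. Mmrn1, a multimerin made by platelets and lymphatic endothelium, was at 8.51, 9.71 and 9.93 FPKM in the 0 µM libraries, 8.65, 8.16 and 8.79 FPKM in the 50 µM libraries and 6.57, 6.48 and 6.50 FPKM in the 100 µM libraries, and its 100 µM libraries differed by under 0.1 FPKM. Mmrn1 fell by 0.46 (SE 0.0598, adjusted p = 0.000403) against 0 µM and by 0.34 (SE 0.0598, adjusted p = 0.00334) against 50 µM, without overlap between 100 µM and either other dose. Egfl7, a secreted endothelial factor and host gene of a microRNA, was at 24.2, 25.3 and 25.1 FPKM in the 0 µM libraries, 26.1, 25.2 and 24.8 FPKM in the 50 µM libraries and 22.9, 22.1 and 22.1 FPKM in the 100 µM libraries. The 100 µM libraries were the 3 lowest by a small margin. Egfl7 fell by 0.15 (SE 0.0394, adjusted p = 0.0182) against 0 µM, a call lost without library 2 or 3 of either dose, and by 0.18 (adjusted p = 0.0114) against 50 µM. In the table, 64 bases of Egfl7 overlap Agpat2 on the opposite strand, a lipid synthesis gene at 549 FPKM on average. Whether counting used strand is not stated, so reads of the pair could be mixed.

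The other 4 tested effector genes were not called. Plvap, which forms the diaphragms of capillary openings, was at 16.2, 16.8 and 15.3 FPKM in the 0 µM libraries, 15.4, 13.0 and 16.3 FPKM in the 50 µM libraries and 13.2, 14.4 and 13.1 FPKM in the 100 µM libraries. Its 100 µM libraries were all below its 0 µM libraries, and the log2 fold change was -0.23 (95% interval -0.41 to -0.05, adjusted p = 0.0503). Plvap passed the threshold in the fit of the 2 doses alone, with voom, and under all 3 other scalings. Nos3, the endothelial nitric oxide synthase, was at 0.952, 1.32 and 1.14 FPKM in the 0 µM libraries, 1.12, 0.934 and 1.28 FPKM in the 50 µM libraries and 0.8997, 0.748 and 0.873 FPKM in the 100 µM libraries, with the 100 µM libraries lowest and a log2 fold change of -0.21 (95% interval -0.47 to 0.04, adjusted p = 0.185) against 0 µM. Gpihbp1 carries lipoprotein lipase across capillary endothelium. It was at 1.35, 1.07 and 1.47 FPKM without alginate, 1.60, 1.27 and 1.47 FPKM with 50 µM and 1.13, 1.07 and 1.02 FPKM with 100 µM, and the 100 µM libraries overlapped the 0 µM ones but not the 50 µM ones. The log2 fold change of Gpihbp1 was -0.15 (95% interval -0.38 to 0.09, adjusted p = 0.318) at 100 µM against 0 µM. Ramp2, the partner that makes the calcitonin receptor-like receptor respond to adrenomedullin, was at 3.87, 2.85 and 2.97 FPKM without alginate, 2.75, 2.87 and 3.18 FPKM with 50 µM and 2.87, 3.05 and 2.71 FPKM with 100 µM. Here library 1 of the 0 µM dose stood above 8 overlapping libraries, and the log2 fold change was -0.12 (95% interval -0.34 to 0.10, adjusted p = 0.386). By the deposited coordinates, 12813 bases of Ramp2 overlap Vps25 on the same strand, listed at 0.378 FPKM on average. Likewise 1830 bases of Plvap overlap Gtpbp3 on the opposite strand, at 5.53 FPKM on average. Whether reads of these pairs were mixed was not tested. Vwf was between 0.104 and 0.218 FPKM, with 20 to 46 rebuilt reads per library, and was not tested.

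Genes outside the member list were counted in lists of related function. Over all genes tested, 15.6% were called lower and 18.3% higher at 100 µM against 0 µM. Those shares stand beside every list count for that comparison. Of 17 tested angiogenic ligands, 8 fell and 1 rose at 100 µM against 0 µM, with a median log2 fold change of -0.33. Vegfd, a ligand of Flt4, was at 143, 141 and 131 FPKM in the 0 µM libraries, 115, 104 and 114 FPKM in the 50 µM libraries and 98.8, 98.9 and 94.5 FPKM in the 100 µM libraries and fell by 0.50 (adjusted p = 0.000136). Angpt2, a ligand of Tek, was at 52.8, 54.1 and 53.9 FPKM in the 0 µM libraries, 47.3, 43.9 and 43.8 FPKM in the 50 µM libraries and 41.7, 40.7 and 42.2 FPKM in the 100 µM libraries and fell by 0.36 (adjusted p = 0.000202). Adm, adrenomedullin, was at 182, 179.8 and 174 FPKM without alginate, 143, 125 and 141 FPKM with 50 µM and 129, 121 and 111 FPKM with 100 µM and fell by 0.57 (adjusted p = 0.000243). These 3 ligands had no overlap between 0 µM and either other dose, and they were the ones of the list already lower at 50 µM against 0 µM, by 0.31 for Vegfd, 0.25 for Angpt2 and 0.39 for Adm (adjusted p = 0.0366, 0.0336 and 0.0366). These 50 µM calls depended on single libraries. Vegfd lost its call without any 1 of 8 of the 9 libraries and Angpt2 and Adm without any 1 of 7, and all 3 lost it with no filter, with only the 2 doses compared and with a replicate block. Vegfb, a ligand of Flt1 that is abundant in oxidative tissues, went the other way. It was at 13.8, 14.9 and 14.03 FPKM without alginate, 18.3, 16.2 and 15.03 FPKM with 50 µM and 24.1, 23.9 and 22.3 FPKM with 100 µM, with the 100 µM libraries highest, and rose by 0.68 (SE 0.0688, adjusted p = 0.000103) against 0 µM.

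Of 33 tested other endothelial genes, 21 fell and 3 rose at 100 µM against 0 µM, with a median of -0.31, and 0 were called at 50 µM against 0 µM. Heg1, a partner of the junctional CCM complex, was at 35.9, 35.4 and 36.9 FPKM without alginate, 34.4, 37.3 and 34.0 FPKM with 50 µM and 25.4, 23.6 and 24.8 FPKM with 100 µM and fell by 0.54 (adjusted p = 5.46e-05). Jam3, a junctional adhesion molecule, was at 17.2, 17.5 and 17.6 FPKM without alginate, 14.5, 15.7 and 16.2 FPKM with 50 µM and 11.8, 11.0 and 10.4 FPKM with 100 µM and fell by 0.62 (adjusted p = 6.29e-05). The leukocyte adhesion receptor Icam1 fell by 0.54 (adjusted p = 0.000169) and the adhesion-type G protein-coupled receptor Adgrf5 by 0.50 (adjusted p = 0.0002). The 3 genes that rose were Cav1 by 0.39 (adjusted p = 0.000595), Tspan18 by 0.39 (adjusted p = 0.00558) and Mcam by 0.21 (adjusted p = 0.0194). Mcam was not called under any of the 3 other scalings, nor without library 1 of the 0 µM dose or library 3 of the 100 µM dose. Cav1, the caveolar coat gene that adipocytes also express highly, was at 377, 394 and 405 FPKM without alginate, 448, 413 and 429 FPKM with 50 µM and 489.9, 541 and 507 FPKM with 100 µM. Among 18 other endothelial transcription factors tested, 10 fell and 1 rose, with a median of -0.21. Klf4, a flow-responsive factor, fell by 0.44 (adjusted p = 5.53e-05), Meox2 by 0.46 (adjusted p = 0.00141) and Elk3 by 0.42 (adjusted p = 0.00288), while Foxo1 rose by 0.35 (adjusted p = 0.00134). In the Notch pathway 3 of 13 tested genes fell and 0 rose, beside the 15.6% called lower over all genes. They were Hes1 at -0.39 (adjusted p = 0.00593), Notch2 at -0.22 (adjusted p = 0.0214) and Notch1 at -0.26 (adjusted p = 0.0247). Notch1 lost its call without any 1 of 5 libraries, with no filter and with a replicate block, and Notch2 without any 1 of 3 libraries.

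Of 10 tested lymphatic endothelial genes, 7 fell and 0 rose, and 4 of the 7 are the members Mmrn1, Lyve1, Prox1 and Flt4. Pdpn, podoplanin, which fibroblasts also carry, was at 40.2, 41.5 and 37.8 FPKM in the 0 µM libraries, 27.3, 26.2 and 32.1 FPKM in the 50 µM libraries and 17.0, 17.0 and 16.6 FPKM in the 100 µM libraries. No 2 doses overlapped for it. Pdpn fell by 1.19 (SE 0.0708, adjusted p = 1.49e-05) at 100 µM against 0 µM and by 0.47 (adjusted p = 0.0267) at 50 µM against 0 µM. The 50 µM call was lost without any 1 of the 0 µM libraries, without library 1 or 2 of the 50 µM dose or library 2 of the 100 µM dose, and with no filter, with only the 2 doses compared and with a replicate block. The integrin Itga9 fell by 0.32 (adjusted p = 0.00776) and the forkhead factor Foxc2 by 0.38 (adjusted p = 0.019) Foxc2 was not called without library 2 of the 0 µM dose, without library 3 of the 100 µM dose or with no filter. The list of capillary and fatty acid handling genes ran against the rest, with 5 of 8 tested genes higher, 1 lower and a median of 0.41. Those that rose were Fabp5 by 0.70 (adjusted p = 2.14e-05), Cd36 by 0.44 (adjusted p = 0.000153), Lpl by 0.39 (adjusted p = 0.00029), Rgcc by 0.53 (adjusted p = 0.00084) and Fabp4 by 0.48 (adjusted p = 0.000971). Cd36, Lpl and Fabp4 are also on the adipocyte list, and Fabp4 was not called with quantile normalization or with no filter. The gene that fell was Meox2.

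Markers of the other cells in such a culture moved at the same dose. All 16 tested adipocyte markers rose at 100 µM against 0 µM, with a median of 0.62, and their summed level was 7884 to 8041 FPKM at 0 µM, 8529.8 to 8926 FPKM at 50 µM and 11352 to 12085 FPKM at 100 µM. The smallest p-values in that list were those of Dgat2, up by 0.74 (adjusted p = 1.47e-05), Lipe, up by 0.73 (adjusted p = 1.55e-05), Cidec, up by 0.73 (adjusted p = 1.55e-05) and Plin1, up by 0.57 (adjusted p = 1.55e-05). Of 16 tested adipose progenitor markers, Eng among them, 12 were lower and 0 higher, with a median of -0.44 and a summed level of 1479.6 to 1546 FPKM at 0 µM, 1304 to 1451 FPKM at 50 µM and 974 to 1061 FPKM at 100 µM. Pdgfra fell by 0.67 (adjusted p = 1.7e-05), Anxa3 by 0.96 (adjusted p = 2.81e-05), F3 by 0.63 (adjusted p = 2.92e-05) and Pdgfrb by 0.45 (adjusted p = 5.61e-05). Macrophage and myeloid markers showed 10 of 14 tested genes lower and 0 higher, with a median of -0.32 and a summed level of 382 to 414 FPKM at 0 µM, 416 to 423 FPKM at 50 µM and 325 to 339 FPKM at 100 µM. In that list Fcgr3 fell by 0.48 (adjusted p = 0.000468), Cd14 by 0.47 (adjusted p = 0.00078), Cd68 by 0.33 (adjusted p = 0.0011) and Mrc1 by 0.45 (adjusted p = 0.00111), whereas Ptprc, the pan-leukocyte marker, stayed under 0.5 FPKM and Itgam was listed at 0 in 8 of 9 libraries. The part of any of these cells in the change of the endothelial genes was not tested.

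The remaining lists gave smaller counts. Among 12 tested genes of smooth muscle and pericytes, 4 were lower and 2 higher, beside 15.6% and 18.3% over all genes tested. The number higher was near that background. Their median was -0.07 and their summed level was 369.6 to 415 FPKM at 0 µM, 369 to 421 FPKM at 50 µM and 266 to 283 FPKM at 100 µM. The contractile genes Acta2, Tagln and Lmod1 fell by 0.63, 0.54 and 0.40 (adjusted p = 0.000462, 0.000759 and 0.00346) and Pdgfrb as above, and the pericyte proteoglycan Cspg4 rose by 0.37 (adjusted p = 0.0136), a call lost without library 3 of the 0 µM dose, beside Mcam, whose call is lost under the other scalings. Myh11, the myosin of mature smooth muscle, was at 2.86 to 3.40 FPKM at 0 µM, 2.66 to 3.13 FPKM at 50 µM and 3.00 to 3.08 FPKM at 100 µM. Platelet and erythroid markers had 2 tested genes, of which Pf4 fell by 0.53 (adjusted p = 0.00633), and Hba-a1 was listed at 0 in every library. Their summed level was 41.9 to 50.0 FPKM at 0 µM, 47.3 to 65.3 FPKM at 50 µM and 30.3 to 33.8 FPKM at 100 µM. The mesothelial markers Krt19 and Gpm6a, the 2 tested of 8, fell by 0.70 and 0.43 (adjusted p = 0.00406 and 0.0263). Gpm6a lost its call without library 3 of the 0 µM dose, without library 2 or 3 of the 100 µM dose and with no filter. The list had a summed level of 6.87 to 9.61 FPKM at 0 µM, 8.65 to 11.2 FPKM at 50 µM and 4.37 to 5.04 FPKM at 100 µM, while Msln stayed under 0.2 FPKM. None of 10 lymphocyte markers passed the filter. Their summed level stayed under 0.5 FPKM in every library, and Cd3d and Nkg7 were listed at 0. Whether any of these lists bears on the endothelial genes was not tested.

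**Figure D4:**
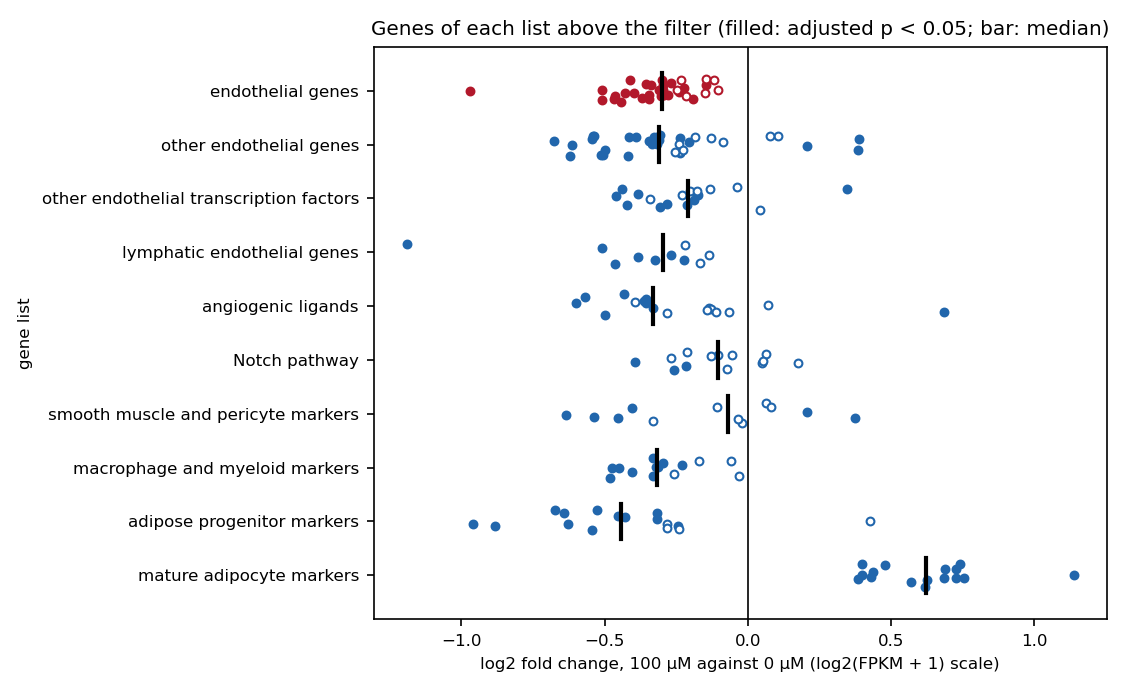
Log2 fold change at 100 µM against 0 µM of each tested gene (points) in the endothelial list and 9 other lists. Filled points have a limma adjusted p below 0.05 and the black bar is the list's median: -0.30 for the endothelial genes, 0.62 for adipocyte markers and -0.44 for progenitor markers.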

How the data were processed

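Expression was measured by RNA sequencing in 9 libraries, 3 per dose. The authors deposited FPKM values for 41761 genes, per the file headers, while the sources used here give neither aligner, counting tool nor use of strand. GRCm38 and mm10 are named in the submitters' processing notes, but the gene identifiers belong to the C57BL/6NJ assembly, whose coordinates were not converted. FPKM times gene length was a whole multiple of 1 value per library in 100% of values (tolerance 0.01 read), so reads were rebuilt. Depth was 14019672 to 17094467 reads. The deposited values carried a factor per library, with scaling total over reads from 0.969 to 1.03. It went with dose, at 0.969 to 0.976 in the 100 µM libraries and 1.01 to 1.03 in all others. It thus raised FPKM at 100 µM relative to the other doses. Libraries of 1 dose differed beyond counting noise, with a chi-square of 3.21 to 7.22 for each gene on average, so all 9 were kept.

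The log2 scale used here was log2(FPKM + 1). Tests were made in limma (version 3.58.1, R 4.3.3) with a variance trend, 1 mean per dose over all 9 libraries, no covariate, and two-sided Benjamini-Hochberg adjusted p-values over the 12635 genes that reached 1 FPKM in 3 or more libraries. Tables and figures were made in Python 3.11.15. The procedure was tested on simulated data. Alternatives were a pseudocount of 0.1, no filter on low values, 3 other scalings, voom on rebuilt reads, a fit of the 2 doses compared, a replicate block and leaving out each library. Every member was reported with its values. From each other list the text names up to 4 called genes with the smallest p at 100 µM against 0 µM and called genes against the list's direction. Fabp4 was named as 1 of the first 3 adipocyte markers, and Myh11, Ptprc, Itgam, Msln, Hba-a1, Cd3d and Nkg7 were named after their values were seen. The members and lists were chosen with earlier results of these data known, so counts over them describe and do not test. From these lists 7 genes were not used here because their symbols were not found: Vegfa, Cyyr1, Rbpj, Ccl21a, Lyz2, Hbb-bs and Cd55.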

Additional observations from a re-analysis of the deposited data

How the results depend on the processing

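None of the 33 members tested was called higher in any comparison under any alternative run. The members called lower at 100 µM against 0 µM, 26 as reported, were 26 with a pseudocount of 0.1, 20 with no filter on low values, 29 with a common sum, 26 with quantile normalization, 27 without the authors' factor, 27 with voom, 25 with only the 2 doses compared and 16 to 26 with 1 library left out. Against 50 µM, 20 as reported, they were 20, 16, 23, 19, 22, 23 and 17 under the same settings and 13 to 21 with 1 library left out. For 50 µM against 0 µM the count was 0 throughout. Of the 26, 16 were called with every library left out in turn, and 20 under every other setting. The rest of the 26 were Tek, Flt4, Sox18, Fli1, Icam2 and Prox1, all lost with no filter. Flt4 and Sox18 were also lost with only the 2 doses compared. Sox18, Fli1, Icam2 and Prox1 were lost with a replicate block, and Prox1 with quantile normalization. Against 50 µM, Cdh5, Kdr, Emcn, Sox18 and Ets1 lost their calls under 1 or more of these other settings. Replicate numbers did not pair the libraries: deviations of same-numbered libraries correlated at -0.09 to 0.04, and the libraries share only a number. With the replicate number as a block, the counts were 22, 0 and 17 for 100 µM against 0 µM, 50 µM against 0 µM and 100 µM against 50 µM. No member's direction reversed at 100 µM against 0 µM under the alternatives run. At 50 µM against 0 µM, where no member was called, 14 of the 33 changed sign in 1 or more alternatives. At 100 µM against 50 µM, 3 uncalled members reversed. With 1 library left out, Tek ranged from -0.128 to 0.0589, above 0 without library 3 of the 50 µM dose or library 1 of the 100 µM dose. Cldn5 ranged from -0.0768 to 0.0625, above 0 without library 3 of the 50 µM dose or library 2 or 3 of the 100 µM dose. Ramp2 ranged from -0.0529 to 0.0251, above 0 without library 3 of either dose, and was 0.0236 with quantile normalization. The cause was not tested. Depth limits Sox17, Vwf, Nos3 and Gpihbp1, with under 100 reads in every library.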

Other observations

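Some genes chosen after their values were seen had, like Aqp1, their highest mean at 50 µM and their lowest at 100 µM. That order was not particular to Aqp1 among the members. Of the 33 members tested, 11 had a log2 fold change above 0 at 50 µM against 0 µM. All 33 were below 0 at 100 µM against either other dose. Car4, a carbonic anhydrase of capillary endothelium, was at 1.37, 1.80 and 2.02 FPKM in the 0 µM libraries, 2.06, 2.38 and 3.04 FPKM in the 50 µM libraries and 0.946, 1.24 and 1.63 FPKM in the 100 µM libraries. It fell by 0.62 (limma adjusted p = 0.0159) at 100 µM against 50 µM, with log2 fold changes of -0.27 (adjusted p = 0.204) at 100 µM against 0 µM and 0.35 (adjusted p = 0.327) at 50 µM against 0 µM, and the call was lost without library 3 of the 50 µM dose. Cd300lg, a surface receptor of capillary endothelium, was at 1.56, 1.88 and 1.74 FPKM in the 0 µM libraries, 2.26, 1.98 and 2.21 FPKM in the 50 µM libraries and 1.25, 1.72 and 1.29 FPKM in the 100 µM libraries and fell by 0.38 (adjusted p = 0.0219) at 100 µM against 50 µM, a call lost without library 1 or 3 of either of these doses and with no filter on low values. Pf4, a chemokine of platelets and some macrophages, was at 39.9, 47.6 and 43.3 FPKM in the 0 µM libraries, 44.98, 56.4 and 63.5 FPKM in the 50 µM libraries and 28.3, 31.5 and 29.6 FPKM in the 100 µM libraries and fell by 0.85 (adjusted p = 0.000924) at 100 µM against 50 µM. For these 3 genes, as for Aqp1, 50 µM against 0 µM was not called, and no test of a shared pattern was made. In the list of capillary and fatty acid handling genes, Car4 and Cd300lg were the only ones called lower at 100 µM against 50 µM. In that comparison 4 of the 8 tested were higher, with a median of 0.23. The order was not limited to endothelial genes. The mesothelial marker Krt19 had 0.35 at 50 µM against 0 µM and -1.05 at 100 µM against 50 µM. C1qc of the macrophage list had 0.17 and -0.49.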
